A study of Mus musculus with 3 samples.

Results

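The 9 genes described here encode transcription factors that are associated with the identity of Langerhans cells, the antigen-presenting cells that reside in the epidermis. They are Id2, Runx3, Spi1, Irf4, Irf8, Zbtb46, Klf4, Bhlhe40 and Batf3. The genes were chosen by symbol, and each symbol was found among the 34289 features of the 3 deposited count matrices. Their levels were read in Langerhans cells with Ccr7 transcripts, in Langerhans cells without them and in macrophages.

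The study profiled single cells from the ear epidermis of male Cd1 mice, an outbred stock, with 1 RNA library per group. The untreated mice had received Nair, a depilatory cream, and nothing else. The croton oil mice received this irritant from a plant seed with acetone and olive oil, and the microneedle mice with multiple punches of a microneedle array. Tissue of both treated groups was taken 48 hours after the first treatment, freed with trypsin, dissociated mechanically, depleted of dead cells and enriched for Langerhans cells on magnetic beads. The labels do not say how many animals stand behind a library, so a difference between libraries carries no replicate check, and intervals given below are 95% intervals of counting error only.

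Langerhans cells descend from precursors of the macrophage lineage, renew themselves in the epidermis and, once activated, leave for the lymph node as migratory dendritic cells that carry the chemokine receptor Ccr7. Id2, which blocks E proteins, and Runx3, which acts with TGF-beta signals, are required for the Langerhans cell network, and Spi1 encodes PU.1, the Ets factor that myeloid cells depend on. Irf4 and Irf8 are interferon regulatory factors that divide the labour between dendritic cell subsets, often by binding beside PU.1 or Batf family proteins. Zbtb46 marks classical dendritic cells, Batf3 is needed by cross-presenting dendritic cells, Klf4 is a zinc finger factor of monocytes and keratinocytes, and Bhlhe40 is a basic helix-loop-helix repressor that many immune cells switch on when activated.

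After filtering, 9054 untreated, 7626 croton oil and 6479 microneedle cells were kept, and the libraries held 117178809 to 127666928 unique molecular identifiers (UMIs, each 1 captured transcript) over all barcodes. Cells counted as Langerhans cells when Cd74, H2-Aa, H2-Ab1 and H2-Eb1 together made up at least 2% of their UMIs and Epcam had at least 2 UMIs. This gave 8651, 5922 and 5295 cells, in the order untreated, croton oil, microneedle, which is 95.5%, 77.7% and 81.7% of the kept cells. Cd207, which encodes langerin and was not part of the rule, stood at 568, 313 and 463 CPM (a gene's UMIs scaled by all UMIs of the summed cells) in those without Ccr7. Any 2 libraries shared 13 to 32 cell barcodes. Markers of other cell types were low in these cells. Of 10 monocyte and macrophage genes, 1, 2 and 1 reached 20 CPM in the Ccr7-negative cells, and their sums were 60.1, 196 and 102 CPM. Cd14 was above 20 CPM in each library, and Mrc1 in croton oil. The sums were 162, 70.7 and 103 CPM for 7 neutrophil genes, of which Mmp9 alone reached 20 CPM in untreated cells. They were 243, 205 and 61.0 for 8 keratinocyte genes and 125, 106 and 145 for 6 genes of conventional dendritic cells. For 7 T cell genes they were 3.70, 55.4 and 10.1 CPM, and Cd3g reached 20 CPM in croton oil.

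The rule also limits what can be seen of migration. A cluster led by Fscn1, Ccr7 and Il4i1, which carried 5 of 7 Langerhans cell markers and 5 of 6 markers of migratory Langerhans cells, held 17, 800 and 167 cells. Only 153 of these 984 cells met the rule, since 560 croton oil cells and 148 from microneedle skin lay below 2% of class II UMIs and 276 and 45 below 2 Epcam UMIs. Their median class II share was 0.539% and 0.131%, against 5.08% and 4.61% in the Langerhans cells. The cells outside the rule, 671 in croton oil and 153 in microneedle, are therefore described on their own.

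Promoter windows hold the sequence around transcript starts listed for the members. Where these starts lie within the genes, and whether they are used in these cells, was not tested. RefSeq windows of assembly GRCm38.p6 were at hand for 7 of the 9 genes, and 4 are printed here as the 250 bases before the start. Batf3, Irf8 and Zbtb46 are shown because they were higher in Ccr7-positive cells together, and Klf4 because it holds the same E-box as Batf3 and did not pass that test. Capitals mark matches, on either strand, to the motifs searched: CACGTG (an E-box that Bhlhe40 binds), GAGGAA (a PU.1 core), TGTGGT (a Runx core), TGANTCA (AP-1 and Batf), the interferon-stimulated response element core, the Ets-Irf composite element (which can overlap the former) and the NF-kB element.
Batf3: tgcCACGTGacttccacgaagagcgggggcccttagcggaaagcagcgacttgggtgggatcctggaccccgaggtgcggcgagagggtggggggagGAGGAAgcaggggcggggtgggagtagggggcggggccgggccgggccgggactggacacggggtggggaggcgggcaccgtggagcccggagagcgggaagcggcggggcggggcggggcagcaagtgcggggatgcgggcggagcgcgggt
Irf8: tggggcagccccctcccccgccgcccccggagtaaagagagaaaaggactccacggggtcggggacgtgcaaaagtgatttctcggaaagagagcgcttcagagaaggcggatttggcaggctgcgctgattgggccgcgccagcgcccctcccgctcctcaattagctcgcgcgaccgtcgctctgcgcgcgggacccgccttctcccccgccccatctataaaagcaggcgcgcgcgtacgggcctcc
Zbtb46: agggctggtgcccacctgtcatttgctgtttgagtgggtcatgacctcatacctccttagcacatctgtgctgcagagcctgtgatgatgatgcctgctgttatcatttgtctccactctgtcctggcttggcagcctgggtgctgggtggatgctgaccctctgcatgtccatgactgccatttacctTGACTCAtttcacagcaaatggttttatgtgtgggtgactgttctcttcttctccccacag
Klf4: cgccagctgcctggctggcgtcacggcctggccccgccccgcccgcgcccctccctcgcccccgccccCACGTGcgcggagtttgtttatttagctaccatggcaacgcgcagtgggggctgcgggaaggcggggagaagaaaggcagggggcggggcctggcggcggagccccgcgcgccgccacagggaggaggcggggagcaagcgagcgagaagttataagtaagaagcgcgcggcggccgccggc
The windows lie at chr1:191098164-191098413 on the plus strand (Batf3), chr8:120736108-120736357 on the plus strand (Irf8, the first of its 2 windows), chr2:181424389-181424638 on the minus strand (Zbtb46) and chr4:55532476-55532725 on the minus strand (Klf4). Batf3 held CACGTG and GAGGAA, Klf4 held CACGTG, Zbtb46 held TGANTCA, and the Irf8 window held none of the 7 motifs. Over 32851 windows of 300 bases (250 before and 50 after a start), CACGTG occurred in 7.15%, GAGGAA in 28.3%, TGTGGT in 16.8%, TGANTCA in 7.81%, the interferon-stimulated core in 3.44%, the Ets-Irf element in 2.72% and the NF-kB element in 0.411%. A match is a run of letters and does not show that a factor binds there.

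The first comparison asked how the members differed between treated and untreated epidermis in Langerhans cells without Ccr7 UMIs, of which there were 8632 untreated, 5638 croton oil and 5227 microneedle cells. Bhlhe40 and Batf3 were at least 2-fold higher in croton oil, Bhlhe40 alone in microneedle, and no member was at least 2-fold lower. That is 2 of 9 members in croton oil, where 5.44% of 6833 genes were at least 2-fold higher and 5.37% lower, and 1 of 8 members in microneedle, where 3.85% of 6701 genes were higher and 1.81% lower. Bhlhe40 and Batf3 entered only through the treated libraries, being under 20 CPM in untreated cells, so a member this low could enter only by differing and the counts support nothing about the members. With a minimum of 50 CPM Batf3 did not enter and 1 member was called in croton oil. Batf3 did not enter the microneedle comparison, since it reached 20 CPM in neither library. Both comparisons share the untreated library. Log2 changes were taken after adding 5 CPM to either level, which shrinks those of weakly expressed genes, and their median over all genes compared was -0.03 in croton oil and 0.02 in microneedle.

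**Figure D1:**
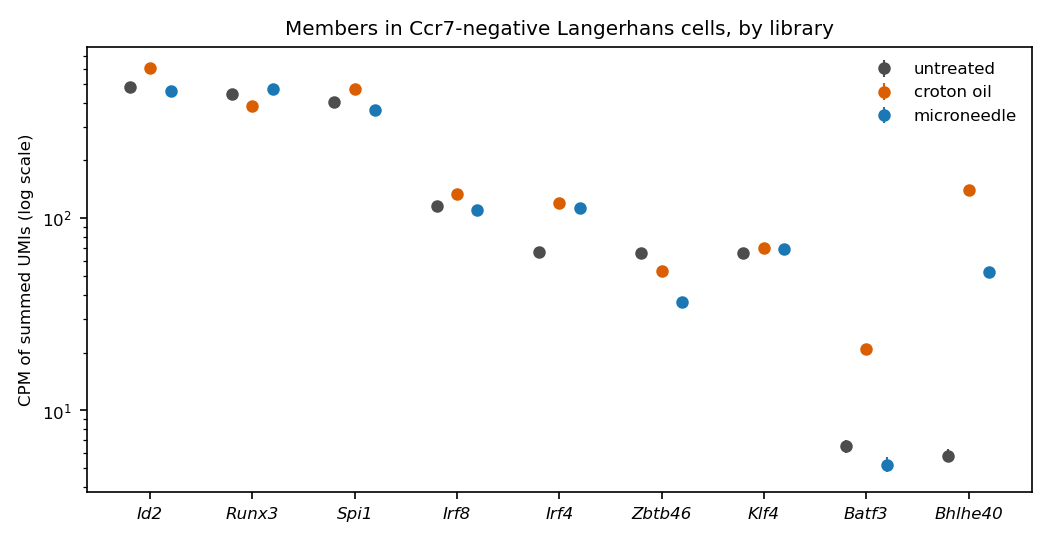
CPM of each member (log axis) in the Ccr7-negative Langerhans cells of the 3 libraries, with 95% counting intervals. Bhlhe40 spans 5.82 to 140.1 CPM between libraries, while Klf4 stays between 65.8 and 69.7 CPM.

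Among the lineage factors, Id2 (ENSMUSG00000020644, GRCm39 chr12:25143798-25147282, minus strand) stood at 481 (477 to 485), 605 (599 to 610.4) and 457 (453 to 461) CPM in the untreated, croton oil and microneedle libraries. Runx3 (ENSMUSG00000070691, chr4:134847952-134905301, plus strand) stood at 441 (437 to 445), 386 (381 to 390.0) and 472 (467 to 476) CPM in the same order, which is kept below. Spi1 (ENSMUSG00000002111, chr2:90912562-90946101, plus strand) stood at 402 (398 to 406), 473 (468 to 478) and 366 (363 to 370.3) CPM. Id2 and Spi1 were thus highest and Runx3 lowest in the croton oil library, and the counting intervals of the libraries did not overlap for any of these genes. The genes lie as protein-coding genes in the GRCm39 annotation at the positions given. The log2 changes were small, at 0.33 for Id2, 0.23 for Spi1 and -0.19 for Runx3 in croton oil, and -0.07, -0.13 and 0.10 in microneedle.

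Of the interferon regulatory factors, Irf4 (ENSMUSG00000021356, chr13:30933209-30950959, plus strand) stood at 66.9 (65.4 to 68.5), 120.1 (118 to 123) and 113 (111 to 115) CPM. It was 1.79-fold and 1.69-fold above untreated, short of 2-fold in both treated libraries, with log2 changes, after adding 5 CPM, of 0.80 and 0.71. Irf8 (ENSMUSG00000041515, chr8:121463096-121485659, plus strand) stood at 116 (114 to 118), 133 (131 to 136) and 110.0 (108 to 112) CPM, with log2 changes of 0.19 and -0.07. Irf4 was therefore higher in both treated libraries, while Irf8 was slightly higher in croton oil and slightly lower in microneedle.

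The dendritic cell factors went different ways. Zbtb46 (ENSMUSG00000027583, chr2:181012111-181104879, minus strand) stood at 66.3 (64.8 to 67.9), 53.4 (51.8 to 55.1) and 36.6 (35.4 to 37.8) CPM, with log2 changes of -0.29 and -0.78. Batf3 (ENSMUSG00000026630, chr1:190830044-190841142, plus strand) stood at 6.51 (6.04 to 7.02), 21.0 (19.9 to 22.0) and 5.22 (4.78 to 5.70) CPM. Zbtb46 was lower in both treated libraries and furthest below untreated in microneedle. Batf3 was 3.22-fold above untreated in croton oil (log2 change with 5 CPM added, 1.17) and lay just below untreated in microneedle.

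Klf4 (ENSMUSG00000003032, chr4:55527139-55532528, minus strand) differed least, at 65.8 (64.3 to 67.3), 69.7 (67.9 to 71.6) and 68.9 (67.3 to 70.6) CPM. Its intervals in the treated libraries overlapped, and its log2 changes were 0.08 and 0.06.

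Bhlhe40 (ENSMUSG00000030103, chr6:108636626-108644502, plus strand) differed most, at 5.82 (5.37 to 6.29), 140.1 (137 to 143) and 52.8 (51.4 to 54.3) CPM. The ratios of CPM to untreated were 24.1 in croton oil and 9.08 in microneedle. With 5 CPM added, the log2 changes were 3.75 and 2.42, and the croton oil level lay above the microneedle level by 1.33. Of the 625 untreated UMIs, 185 came from 44 cells outside the Langerhans-like clusters, 36 of them in the keratinocyte-like cluster. Within the Langerhans-like clusters the levels were 4.14, 140.3 and 52.6 CPM, and the ratios were 33.9 and 12.7. Between the largest cluster of each library the log2 changes were 4.16 and 2.77. Other cells express Bhlhe40 as well, with 259 and 237 CPM in the neutrophil-like cells of croton oil and microneedle, 128 and 155 in keratinocyte-like cells and 288 in the macrophage-like cells of microneedle. Markers of these cells were measured in the Ccr7-negative Langerhans cells of untreated, croton oil and microneedle. The summed level of 7 neutrophil markers was 162, 70.7 and 103 CPM, of which 1, 2 and 1 reached 20 CPM. Mmp9 was the only neutrophil marker at 20 CPM in untreated and microneedle, and S100a9 joined it in croton oil. S100a8 was at 0 in untreated and at 18.2 and 9.13 CPM in the treated libraries. The sum of 8 keratinocyte markers was 243, 205 and 61.0 CPM, of which 4, 4 and 0 reached 20 CPM. The sum of 10 macrophage markers was 60.1, 196 and 102 CPM, of which 1, 2 and 1 reached 20 CPM, and Cd14 alone stood at 20.7, 115 and 69.1. The keratinocyte sum was thus highest and the macrophage sum lowest in untreated cells. The neutrophil sum was highest there too, with Mmp9 its only marker at 20 CPM, whereas S100a8 and Retnlg were at 0 in untreated cells alone. The part of neutrophils, keratinocytes and macrophages in the Bhlhe40 levels was not tested.

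Scaling by the trimmed mean of M-values (TMM) shifts the log2 ratios of CPM by 0.12 in croton oil and by -0.02 in microneedle, and less for low genes once 5 CPM are added. It turns the croton oil split of all genes from 372 higher and 367 lower into 499 higher and 276 lower. No member changed direction under it.

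The second measure was the share of cells with a UMI, after thinning each cell to 3000 UMIs, which left out 102 untreated, 32 croton oil and 58 microneedle cells of the Ccr7-negative class. Bhlhe40 was seen in 1.11% (0.902 to 1.36), 28.3% (27.1 to 29.5) and 11.6% (10.7 to 12.5) of these cells. Irf4 was seen in 14.5% (13.7 to 15.2), 24.4% (23.3 to 25.5) and 22.3% (21.2 to 23.5), and Zbtb46 in 16.1% (15.3 to 16.9), 12.6% (11.7 to 13.5) and 8.80% (8.04 to 9.61). The shares of these 3 genes ordered the libraries as the CPM did. Without thinning the shares were 3.59%, 61.7% and 34.6% for Bhlhe40, 32.9%, 53.6% and 53.5% for Irf4 and 41.9%, 37.2% and 31.6% for Zbtb46.

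At this depth most Langerhans cells had a UMI of each lineage factor. Shares in keratinocyte-like cells are given below for Spi1 and Runx3. Id2 was seen in 72.6%, 74.0% and 67.1% of the thinned cells, Spi1 in 68.2%, 73.3% and 64.6%, and Runx3 in 68.9%, 58.6% and 68.3%. The median thinned cell had UMIs of 3 of the 9 members in each library, and 1.32%, 0.660% and 1.66% of cells had none. Irf8 was seen in 29.1%, 30.7% and 25.9%, Klf4 in 15.1%, 16.6% and 16.4% and Batf3 in 2.02% (1.73 to 2.34), 6.31% (5.69 to 6.98) and 1.74% (1.40 to 2.14).

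Keratinocyte-like cells, which should lack Spi1, Irf4, Irf8, Zbtb46 and Batf3, are used here as a gauge of free RNA in the droplets. Whether their UMIs of these genes came from free RNA was not tested. Their median depth was 24878.5, 50698 and 26737.5 UMIs, against 11513, 12524 and 17312 in the Ccr7-negative Langerhans cells. At 3000 UMIs, Irf4 was seen in 0.962%, 1.53% and 3.85% of them, Irf8 in 4.33%, 1.53% and 2.56%, Zbtb46 in 4.33%, 0% and 1.28% and Spi1 in 17.8%, 7.65% and 12.8%. In each library the Langerhans cell share of these 4 genes lay above the keratinocyte share, with no overlap of the intervals. Batf3 was seen in 0 of 208, 196 and 78 keratinocyte-like cells, with upper bounds of 1.76%, 1.86% and 4.62%. The croton oil share of Batf3 in Langerhans cells lay above its bound, whereas the untreated interval reached its bound and the microneedle share lay below. In CPM over all UMIs, Batf3 stood at 1.15 (0.464 to 2.38), 4.06 (2.95 to 5.46) and 0.298 (0.00753 to 1.66) in the keratinocyte-like cells, below the Langerhans cells of each library with no overlap of the intervals. In croton oil at 3000 UMIs, 6.72% (2.95 to 12.8) of T cell-like cells had a Batf3 UMI. Their level was 24.99 CPM (15.5 to 38.2), and both intervals overlapped those of the Langerhans cells. The neutrophil-like share, 3.64% (0.9995 to 9.05), overlapped too, while the CPM interval (3.62 to 18.5) lay below. In microneedle Batf3 was seen in 0 of 271 neutrophil-like cells. The source of Batf3 UMIs in these classes was not tested. Id2, Klf4 and Bhlhe40 are expressed by keratinocytes, so their shares in keratinocyte-like cells are no background.

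**Figure D2:**
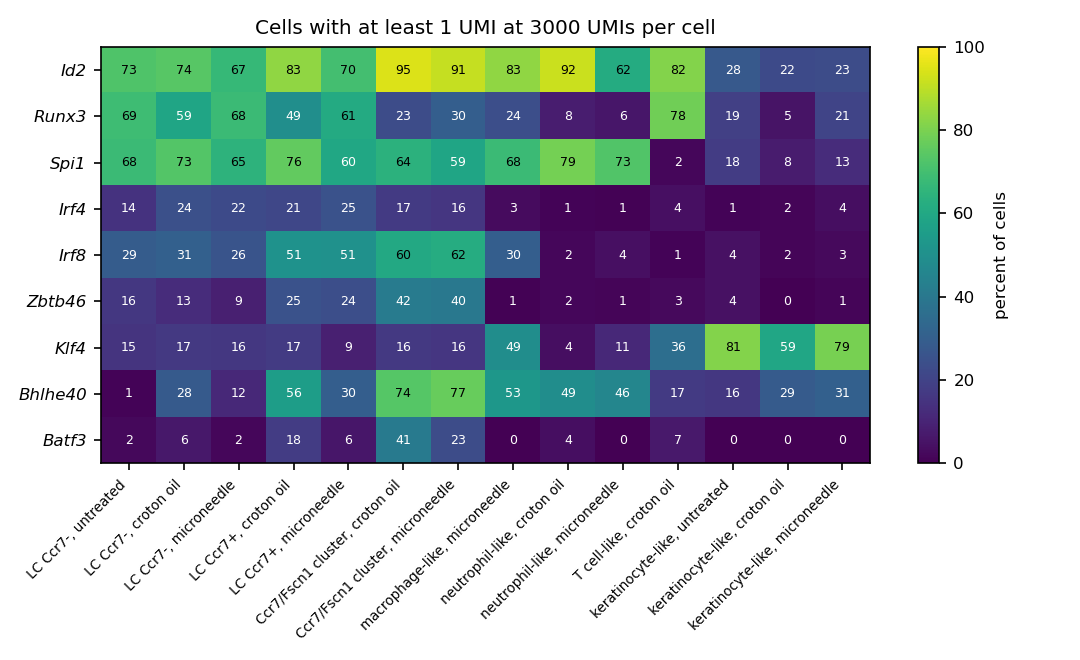
Percent of cells with at least 1 UMI of each member after thinning to 3000 UMIs per cell, for each cell class and library of at least 50 cells (LC is Langerhans cell). Zbtb46 and Irf4 pass 5% in no class other than the Langerhans cells and the Ccr7/Fscn1-led cells.

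The third comparison set Langerhans cells with at least 1 Ccr7 UMI against those without, within each library. The positive class held 19, 284 and 68 cells, or 0.220%, 4.80% and 1.28% of the Langerhans cells. A call that rests on 1 UMI is not separable from free RNA here. Thinned to 3000 UMIs, 2.21% (1.85 to 2.62) and 0.420% (0.263 to 0.635) of the croton oil and microneedle Langerhans cells had a Ccr7 UMI, against 1.53% (0.317 to 4.41) and 1.28% (0.0325 to 6.94) of the keratinocyte-like cells, whose intervals hold both shares. Of the Ccr7-positive cells, 9, 112 and 13 lay in the Fscn1-led cluster and 8, 159 and 53 in clusters of other Langerhans-like cells. Another 0, 12 and 2 lay in a cluster that also carried T cell genes. The few left in untreated and croton oil lay in other clusters.

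Bhlhe40, Batf3, Irf8 and Zbtb46 were higher in the Ccr7-positive cells by edgeR's quasi-likelihood test on UMIs summed per library and class, with the library as a block and Benjamini-Hochberg adjustment over 17648 genes. That is 4 of 9 members, all higher, where 3.8% of all genes tested were higher and 2.12% lower. The members were chosen with earlier results of these data known. This count and the member counts below therefore support nothing about the members as a set. As the 3 libraries carry different treatments, the test asks for a difference that they share. The median log2 fold change was 0.62 over the members and -0.04 over all genes.

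**Figure D3:**
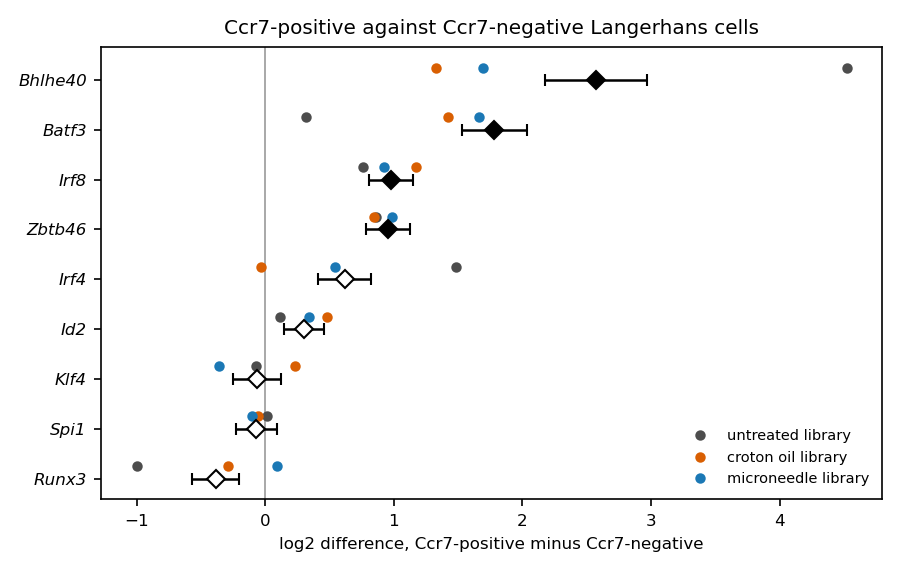
log2 difference of each member between Ccr7-positive and Ccr7-negative Langerhans cells. Diamonds are edgeR estimates with standard errors, filled where the adjusted p is under 0.05, and points are the single libraries. The filled diamonds run from 0.95 for Zbtb46 to 2.57 for Bhlhe40, and the points of Irf4, Klf4, Spi1 and Runx3 lie on both sides of 0.

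Bhlhe40 stood at 243 (192 to 304), 359 (341 to 377) and 182 (161 to 205) CPM in the Ccr7-positive cells, above the Ccr7-negative cells in each library with no overlap of the intervals. The log2 differences were 4.52, 1.33 and 1.70, and the edgeR estimate was 2.57 ± 0.40 (SE, adjusted p = 6.05e-05). With DESeq2 the estimate was 2.69 ± 1.04 (SE) and the adjusted p was 0.15. Without the untreated library, where the difference was largest, the edgeR estimate was 1.53. Of the 78 untreated UMIs, 44 came from 9 cells of the Fscn1-led cluster and 4 from 8 cells of other Langerhans-like clusters. The rest came from the few positive cells in other clusters, and the counting interval does not hold the spread between cells.

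Batf3 stood at 9.36 (1.93 to 27.3), 64.6 (57.3 to 72.6) and 27.4 (19.7 to 37.2) CPM, the untreated value resting on 3 UMIs. The untreated ratio to Ccr7-negative cells was 1.44 (0.296 to 4.20), so no difference was detectable in that library, and the log2 differences in the other libraries were 1.42 and 1.66. The edgeR estimate was 1.78 ± 0.25 (SE, adjusted p = 1.42e-05).

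Irf8 stood at 199.6 (154 to 255), 306 (289.8 to 323) and 213 (190.4 to 238) CPM in the Ccr7-positive cells, above the negative cells of each library. Its log2 differences were 0.76, 1.17 and 0.92, with an edgeR estimate of 0.98 ± 0.17 (SE, adjusted p = 0.000274). Zbtb46 stood at 125 (89.1 to 169.9), 100.0 (90.9 to 109.8) and 77.5 (64.0 to 92.9) CPM, with log2 differences of 0.86, 0.85 and 0.99 and an edgeR estimate of 0.95 ± 0.17 (SE, adjusted p = 0.00044). Zbtb46 was thus higher in the Ccr7-positive class by a similar amount in each library, although its level in the Ccr7-negative class was lower in the treated libraries. The summed level of 6 conventional dendritic cell markers was also higher in the Ccr7-positive cells, at 243, 154 and 184 CPM against 125, 106 and 145. In the positive cells Flt3 and Itgax reached 20 CPM in each library, Xcr1, Clec9a and Kmo stood at 0 in untreated, and their part in the Zbtb46 levels was not tested.

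The other 5 members did not pass the threshold, which does not show that they were equal. Irf4 stood at 196 (151 to 251), 117 (108 to 128) and 167 (147 to 189) CPM in the Ccr7-positive cells, with log2 differences of 1.49, -0.03 and 0.55 and an edgeR estimate of 0.62 (adjusted p = 0.0797). The Irf4 intervals of the 2 classes overlapped in croton oil and not in the other libraries. Runx3 stood at 218 (170.2 to 276), 315 (299 to 332) and 502 (466 to 539) CPM, with log2 differences of -0.998 in untreated and -0.29 and 0.09 in the treated libraries (edgeR estimate -0.38, adjusted p = 0.305). T cells express Runx3 too, at 644 CPM in the T cell-like cells of croton oil. The summed level of 7 T cell markers was 6.24, 247 and 88.2 CPM in the Ccr7-positive against 3.70, 55.4 and 10.1 in the Ccr7-negative cells. Of the 7 markers, 0, 3 and 2 reached 20 CPM in the positive cells, and Cd3e, Cd3g, Trbc2, Trac and Trdc were at 0 in the untreated ones. The part of T cell transcripts in the Runx3 levels was not tested.

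Id2 stood at 521 (445 to 606), 845 (818 to 872) and 579 (541 to 619) CPM in the Ccr7-positive cells, with an edgeR estimate of 0.30 (adjusted p = 0.384). Spi1 stood at 405 (339 to 481), 454 (434 to 474) and 341 (312 to 372) CPM and overlapped the Ccr7-negative interval in each library (edgeR adjusted p = 0.934). Klf4 stood at 62.4 (38.1 to 96.3), 83.0 (74.7 to 91.9) and 52.8 (41.8 to 65.8) CPM (edgeR adjusted p = 0.956). Id2 lay above the Ccr7-negative interval in croton oil and microneedle, and Klf4 above it in croton oil and below it in microneedle.

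Irf4 and Runx3 depended on the libraries and on the Ccr7 call. Without the untreated library the edgeR estimate was 0.23 for Irf4 (adjusted p = 0.42) and -0.13 for Runx3 (adjusted p = 0.71). Without microneedle it was -0.65 for Runx3 (edgeR adjusted p = 0.128). With cells thinned to 3000 UMIs Irf4 stood at 0.16 and Runx3 at -0.74, and neither passed by edgeR's adjusted p (0.899 and 0.104). With positive cells of at least 2 Ccr7 UMIs both passed, Irf4 higher at 0.96 (edgeR adjusted p = 0.000718) and Runx3 lower at -1.07 (edgeR adjusted p = 0.000125). Irf8, Zbtb46, Bhlhe40 and Batf3 passed as well, which is 6 of 9 members, where 4.83% of 17489 genes were higher and 7.27% lower. With Ccr7 and Fscn1 both detected, Id2 passed too, at 0.76 (edgeR adjusted p = 0.0401), while Irf4 stood at 0.85 and Runx3 at -1.07. That is 7 of 9 members, where 5.34% of 17235 genes were higher and 5.91% lower.

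The calls of Batf3, Irf8 and Zbtb46 were lost without the croton oil library, which holds 284 of the 371 Ccr7-positive cells. Without it the log2 fold changes were 1.72 for Batf3, 0.81 for Irf8 and 0.93 for Zbtb46, and edgeR's adjusted p was 0.119 for Batf3, 0.156 for Irf8 and 0.0844 for Zbtb46, and Irf4 passed at 0.0468. In a test of cells of the Langerhans-like clusters alone, added after the data had been seen, Bhlhe40 was the only member called, where 1.17% of all genes were higher and 0.39% lower, with a log2 fold change of 1.04. Batf3, Irf8 and Zbtb46 had 0.66, 0.35 and 0.52, with edgeR adjusted p of 0.51, 0.378 and 0.165.

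Within the Ccr7-positive croton oil cells, the 112 in the Fscn1-led cluster and the 159 in other Langerhans-like clusters had different levels of most members. Irf8 stood at 509.9 (476 to 546) CPM in the former and 198 (180.3 to 216) in the latter. Batf3 stood at 125 (109 to 143) and 31.2 (24.6 to 39.1) CPM, and Bhlhe40 at 541 (507 to 578) and 267 (247 to 288). Runx3 had the reverse order, at 164 (145 to 185) and 381 (357 to 407) CPM, and Irf4 stood at 83.8 (70.4 to 99.0) and 143 (128 to 159). Spi1 did not differ beyond counting error, at 463 (431 to 497) and 473 (446 to 501) CPM. Irf4 had the opposite order in the other libraries, higher in the Fscn1-led cells at 268 (194 to 359) against 60.8 (24.5 to 125) CPM in untreated, with 9 and 8 such cells, and at 308 (252 to 372) against 134 (113 to 158) CPM in microneedle, with 13 and 53. The cluster was made from other genes of the same cells, so these values are a description.

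The cells of the Fscn1-led cluster outside the rule were set beside both Ccr7 classes. Id2 stood at 1587 (1562 to 1612) and 1232 (1189 to 1277) CPM in croton oil and microneedle, and Bhlhe40 at 550.0 (535 to 565) and 666 (635 to 699). Irf8 stood at 402 (389 to 415) and 445 (419 to 472) CPM, Zbtb46 at 223 (214 to 233) and 284 (264 to 306) and Batf3 at 189 (180.5 to 198) and 102 (89.9 to 115). These 5 genes were above both Ccr7 classes of Langerhans cells in either library. Runx3 lay below both classes, at 118 (112 to 125) and 123 (109.8 to 138) CPM, and Irf4 stood at 82.4 (76.8 to 88.3) and 76.1 (65.7 to 87.7), Spi1 at 394 (382 to 407) and 341 (319 to 365) and Klf4 at 66.5 (61.5 to 71.8) and 67.7 (57.9 to 78.7).

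In these cells Batf3 was seen in 40.7% (37.0 to 44.6) and 23.3% (16.8 to 30.9) at 3000 UMIs, and Bhlhe40 in 73.8% (70.2 to 77.1) and 76.7% (69.1 to 83.2). Runx3 was seen in 23.4% (20.2 to 26.8) of the croton oil and in 45 of 150 microneedle cells, against 58.6% and 68.3% of the Ccr7-negative Langerhans cells. Classical dendritic cells also express Zbtb46, and Flt3, one of their markers, stood at 470.4 and 584 CPM outside the rule against 38.4 and 34.5 in the Ccr7-negative Langerhans cells. Xcr1 stood at 0.206 and 0 and Clec9a at 0 and 0 CPM, and Cd207 at 139 and 144. The part of dendritic cells of other origin in these levels was not tested.

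**Figure D4:**
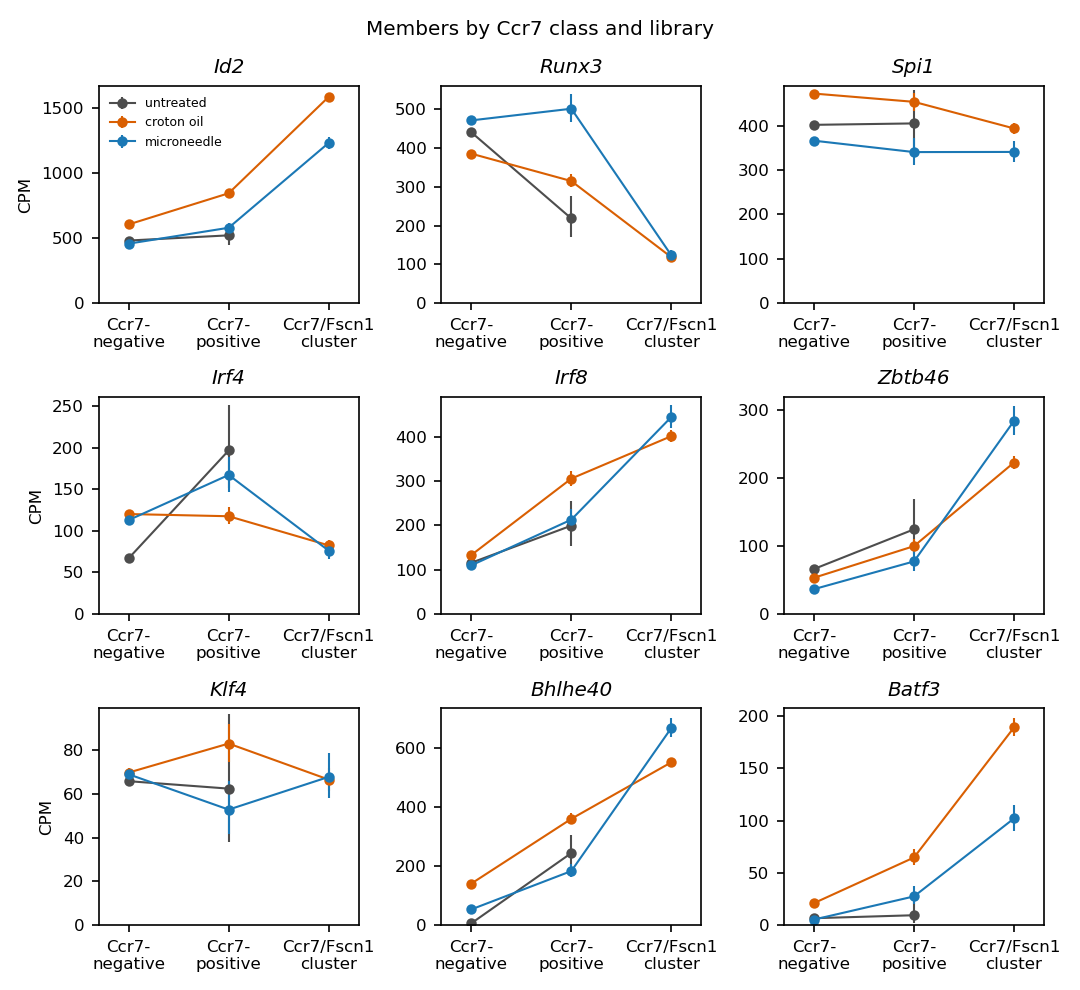
CPM of each member with 95% counting intervals in Ccr7-negative Langerhans cells, Ccr7-positive Langerhans cells and the cells of the Ccr7/Fscn1-led cluster outside the rule, by library. In croton oil and microneedle Id2, Irf8, Zbtb46, Bhlhe40 and Batf3 are highest in the last class and Runx3 is lowest there.

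The test was also run on all cells of the Langerhans-like and Fscn1-led clusters with no class II or Epcam condition, a setting added after the data had been seen. There 6 of the 9 members passed, and of 18488 genes 12.4% were higher and 12.9% lower. Id2, Irf8, Zbtb46, Bhlhe40 and Batf3 were higher in the Ccr7-positive cells, with log2 fold changes of 0.88, 1.38, 1.87, 3.43 and 3.11, and Runx3 was lower, at -1.09. Their edgeR adjusted p ran from 1.53e-07 for Batf3 to 0.0024 for Id2.

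Macrophages could be described in the microneedle library alone, with 363 macrophage-like cells against 3 in untreated and 6 in croton oil. Their cluster carried 9 of 10 macrophage markers, with Lyz2 at 1344 and Fcgr1 at 911 CPM, and cells with melanocyte genes were taken out of it. The median depth was 6143 UMIs. Id2 stood at 1113 (1072 to 1155) CPM in them, Klf4 at 315 (293 to 337) and Bhlhe40 at 288 (268 to 309.9), each above the Ccr7-negative Langerhans cells of that library at 457, 68.9 and 52.8.

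Spi1 stood at 383 (359 to 408) CPM in macrophage-like against 366 in Langerhans cells, and its intervals overlapped. Irf8 stood at 131 (117 to 146) CPM against 110.0. Runx3 was lower in the macrophage-like cells, at 111 (98.1 to 125) CPM against 472. Irf4 stood at 13.1 (9.02 to 18.4) CPM against 113, and at 5.43 when 252 cells were gated on marker genes in place of the cluster. Zbtb46 had 4 UMIs (1.59 CPM, 0.433 to 4.07) and Batf3 had 1 UMI (0.397 CPM, 0.0100 to 2.21) in all macrophage-like cells together. Of the members, Zbtb46 and Batf3 were thus at or near 0 in these cells. Irf4 was seen in 2.94% (1.28 to 5.71) of them at 3000 UMIs. In the keratinocyte-like cells of the same library, whose median depth was 26737.5 UMIs, Irf4 stood at 10.7 (7.50 to 14.8) CPM and was seen in 3.85%. The Irf4 of the macrophage-like cells overlapped these values and is not read as expression. Whether it came from free RNA was not tested. Runx3 stood at 79.2 (69.9 to 89.3) CPM in the keratinocyte-like cells and was seen in 20.5% (12.2 to 31.2) of them at 3000 UMIs. In the macrophage-like cells its share was 23.9% (19.0 to 29.4), and the part of free RNA in it was not tested. Spi1 in the macrophage-like cells was at a level that overlapped that of Langerhans cells.

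Within a library the members also varied between clusters of Langerhans cells, which had been made without these 9 genes. In untreated skin Irf4 stood at 71.8 (70.0 to 73.7) CPM in the main cluster, led by Hpgd, Inpp4b and Adgre4, at 34.8 (32.4 to 37.3) in the cluster led by Hpgd, Adgre4 and H2-M5, and at 255 (227 to 285) in 82 cells led by Hapln3, Neb and Elovl5. The same Hapln3-led cluster held 3422 Langerhans cells of the microneedle library, where Irf4 stood at 127 (124 to 129.8) CPM. In the 750 microneedle cells of the main untreated cluster Irf4 stood at 68.0 (63.5 to 72.7) CPM, and its interval overlapped that of the untreated cells there.

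Bhlhe40 had another pattern. In untreated cells it stayed at 2.48 to 3.84 CPM in the 3 clusters of at least 50 cells. In microneedle it went from 15.3 (13.2 to 17.6) CPM in the main untreated cluster to 142 (130.4 to 154) in the C1qa-led cluster. That C1qa-led cluster held 4831 of the croton oil Langerhans cells, with 151 (148 to 154) CPM. Bhlhe40 was therefore above the untreated level even in the microneedle cells that clustered with most untreated ones.

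A cluster led by the heat-shock genes Hspa1a and Hsph1, with 740 croton oil and 625 microneedle cells, stood apart in Klf4 and Runx3. Klf4 stood at 22.7 (19.7 to 26.0) and 31.2 (27.6 to 35.1) CPM there, below the other clusters of either library. Irf4 stood at 45.5 and 64.6 CPM, below the other clusters in croton oil but within their range in microneedle. Runx3 stood at 649.9 (634 to 666) and 632 (616 to 649) CPM, above the other croton oil and microneedle clusters. Its lowest value, 199 (179 to 219.9) CPM, was that of the 129 croton oil cells of the Fscn1-led cluster that met the rule.

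**Figure D5:**
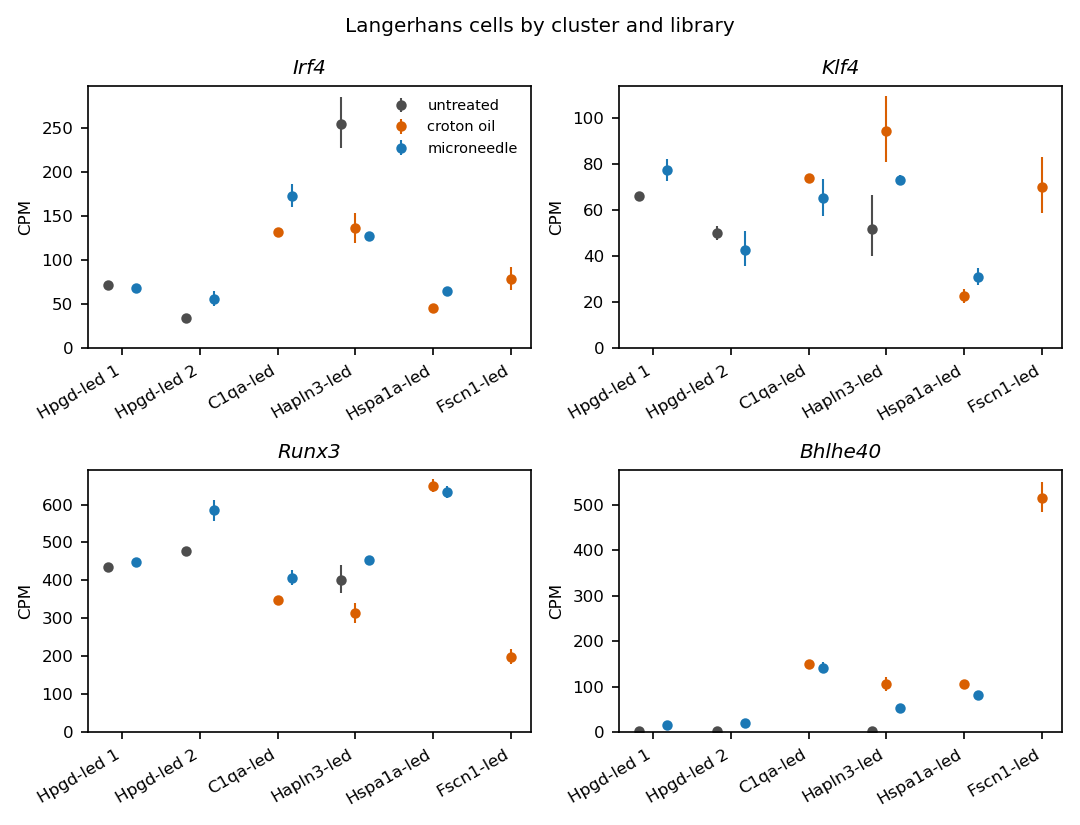
CPM of Irf4, Klf4, Runx3 and Bhlhe40 with 95% counting intervals in the Langerhans cells of each cluster and library with at least 50 such cells. Clusters are named by their first leading gene. Bhlhe40 is near 0 in the untreated cells of each cluster, and Klf4 is lowest in the Hspa1a-led cells.

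Relatives and partners of the members were counted in the same way. Of 52 such transcription factors 40 entered each library comparison. In croton oil 4 were at least 2-fold higher (among them Zeb2, Nfil3 and Ets2) and 3 at least 2-fold lower (Jun, Klf2 and Ahr). In microneedle 2 were higher (Irf7 and Klf13) and 2 lower (Klf2 and Jun). Among all genes compared, the shares beyond 2-fold were 5.44% upward and 5.37% downward for croton oil and 3.85% and 1.81% for microneedle. The median log2 change of the 40 was -0.11 in croton oil and -0.04 in microneedle.

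Zeb2, a zinc finger factor of macrophage and dendritic cell identity, stood at 1.90, 40.9 and 11.0 CPM in the Ccr7-negative cells, and Nfil3, a basic leucine zipper factor, at 51.1, 136 and 80.9. Both genes were highest in croton oil. Ets2, a relative of Spi1, stood at 24.2, 55.6 and 36.1 CPM, and Ahr, the aryl hydrocarbon receptor, at 397, 191 and 252.

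Jun, a partner of Batf proteins, stood at 1877, 513 and 689 CPM, and Klf2, a relative of Klf4, at 196, 69.1 and 57.8. Both were lower in either treated library, while Klf4 was not. Klf13 was higher in both, at 224, 428 and 543 CPM, and passed 2-fold in microneedle, where its log2 change was 1.26, the croton oil value being 0.92. Irf7, which amplifies the interferon response, stood at 3.31, 8.21 and 29.7 CPM. Batf, the close relative of Batf3, stood at 4.88 CPM in untreated cells and Bhlhe41, the close relative of Bhlhe40, at 0.214, and both stayed below 20 CPM in the treated libraries.

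Of the 50 relatives tested between Ccr7 classes, 6 were higher (Runx2, Ets1, Irf5, Zeb2, Rel and Nfkb2) and 3 lower (among them Klf13 and Cebpb) by edgeR's adjusted p, where 3.8% of all genes were higher and 2.12% lower. Their median log2 fold change was -0.05. Runx2, a relative of Runx3, stood at 34.3, 88.9 and 60.1 CPM in the Ccr7-positive cells against 2.08, 16.8 and 9.95 in the negative ones. The NF-kB subunit gene Rel stood at 1787, 1847 and 1932 against 1411, 1086 and 1262 CPM. Zeb2 stood at 159, 49.0 and 29.4 against 1.90, 40.9 and 11.0 CPM, so its difference was mostly that of the untreated library.

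Of 6 genes that PU.1 is known to drive, 5 were compared between libraries. Cd14 and Fcgr3 were at least 2-fold higher in croton oil, and Cd14 and Csf1r in microneedle, where 5.44% and 3.85% of all genes were higher. Csf1r, the receptor of the growth factors Csf1 and Il34, stood at 302, 597 and 625 CPM, and Cd14, which is also 1 of the macrophage markers, at 20.7, 115 and 69.1. Itgam and Fcgr3 were lower in the Ccr7-positive cells by edgeR's adjusted p, as were 2.12% of all genes, with Itgam at 24.9, 18.4 and 35.4 against 50.5, 46.1 and 60.1 CPM and Spi1 not called.

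The genes whose levels were most like those of each member were sought over 14 cell classes by library, among 10832 genes. These classes share libraries and depth, and the values of r are Pearson's on log2(CPM + 5), given as a description. Batf3 was most like Serpinb6b (r = 0.95), Socs2 (0.94) and Serpinb9 (0.94), and Irf8 most like Kcnk13 (0.98), Gm36486 (0.97) and Cd40 (0.97). Spi1 was most like Alcam (0.98), Creb5 (0.97) and Tyrobp (0.96), and Runx3 most like Snx9 (0.98), Nfatc2 (0.96) and Nrbp1 (0.96).

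Irf4 was most like Hvcn1, 3300002A11Rik and Grk3 (0.97, 0.96 and 0.96), Zbtb46 most like Rogdi, Dscam and Pcdh10 (0.97 each) and Id2 most like Selplg, Tmsb4x and Arid3b (0.94, 0.93 and 0.92). Klf4 was like Mfsd5 and Tmem41a (0.95 and 0.94). Bhlhe40 had the weakest likeness of the members to any gene, with Gpx1, Ostf1 and Nuak2 at 0.85, 0.84 and 0.83. Among the members themselves, r was 0.86 between Irf8 and Zbtb46 and 0.85 between Irf4 and Zbtb46. It was 0.84 both between Irf4 and Irf8 and between Zbtb46 and Batf3, and -0.75 between Id2 and Klf4.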

How the data were processed

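Droplet 3' single-cell RNA libraries were read from the raw UMI counts per gene and barcode that the authors deposited, per the file headers with Cell Ranger 8.0.0, and on GRCm39 per the submitters' processing notes. Cells with at least 500 genes and at most 10% mitochondrial UMIs were kept, and the highest Scrublet scores were removed at 0.8% per 1000 cells, since its own threshold marked 1, 0 and 0 cells. UMIs were summed per library and class, and every other cell class came from Leiden clustering (scanpy 1.11.5, leidenalg 0.10.2) without the 9 members. With 1 library per group, libraries were not tested against each other; genes at 20 CPM or more in either library were called at 2-fold. Ccr7 classes were tested with edgeR 4.0.16 (R 4.3.3) on 6 sums, with TMM scaling, filterByExpr and the library as a block, at an adjusted p of 0.05; DESeq2 1.42.0 was an alternative. Intervals are exact Poisson (CPM) or exact binomial (shares) at 95%. Named genes are all members, up to 4 past a threshold per related list, and the 3 genes most like each member. Some genes that this rule names are not reported here. Members and lists were chosen with earlier results of these data known. P-values measure the spread between these libraries, whose number of animals is not stated in the sources used here.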

Additional observations from a re-analysis of the deposited data

Results flagged for a closer look

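Klf4 went opposite ways with Ccr7 in the treated libraries. The log2 difference between Ccr7-positive and Ccr7-negative Langerhans cells was 0.24 in croton oil and -0.36 in microneedle, and the difference between these values was not tested, since each comes from 1 library.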

How the results depend on the processing

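No alternative that was run turned the direction of a result called here. Over the alternatives, 90 counts of genes or members stayed within 1.5 times of the reported count and 18 did not, and 92 member differences between Ccr7 classes kept their side of the threshold, 9 newly passed it and 7 lost it. Of member changes between libraries 144 stayed within counting error and 36 did not, all 54 alternative shares moved with the thinning depth (untreated Batf3 from 2.02% to 1.09% at 2000 UMIs), and of the macrophage levels 17 stayed and 1 moved (Irf4, to 5.43 CPM). With genes of at least 50 CPM, 219 genes were lower in croton oil and 70 in microneedle, and 1 member was called in croton oil, since Batf3 did not enter. For the Ccr7 classes, genes lower numbered 146 with DESeq2, 644 with no filter, 1271 with at least 2 Ccr7 UMIs, where 6 members passed, and 1018 with Ccr7 and Fscn1 both detected, where 7 members passed (all but Spi1 and Klf4) beside 844 and 921 genes higher. With cells thinned to 3000 UMIs 305 genes were higher. Among settings added after the data had been seen, the Langerhans-like clusters alone gave 200 genes higher, 67 lower and 1 member, and no class II or Epcam condition gave 2285 and 2387. Leaving out 1 library gave 306 to 876 genes higher, 64 to 717 lower and 2 to 5 members; the fewest came without croton oil, and without the untreated library Id2 passed at an edgeR adjusted p of 0.0305. No paired analysis was possible because each treatment has 1 library and the labels give no replicate numbers, as far as treatments are compared; the Ccr7 classes were compared with the library as a block. Batf3 and Ccr7 are limited by depth, with few UMIs per cell.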
